A study of Rattus norvegicus with 30 samples.

Results

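Heme is built from glycine and succinyl-CoA in a chain of enzymes shared by all cells, and red cells make most of the heme of the body for hemoglobin. The first step is carried out by 2 synthases, Alas2 in the erythroid lineage and Alas1 in other tissues. Urod, Cpox and Ppox act on the porphyrin ring, and Fech inserts the iron. The heart makes heme for myoglobin and the mitochondrial cytochromes, and it also holds blood, whose young red cells still carry Alas2, globin (Hba-a2 and Hbb-b1) and band 3 (Slc4a1) mRNA. These 9 genes were selected by symbol from the authors' normalized tables of whole-heart expression, which hold 12 rows of them among 27408, 27383 and 26553 rows at 8, 21 and 78 weeks. Alas1, Alas2, Fech, Hba-a2, Hbb-b1 and Ppox have 1 row each, and Cpox, Slc4a1 and Urod have 2 rows. Alas2 itself was chosen by a measured value, its difference between the sexes at 8 weeks, so all 8-week sex differences below are descriptions without a test.

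The 30 hearts came from untreated F344 rats, an inbred strain, from a single breeding colony, with 5 females and 5 males at 8 (young), 21 (adult) and 78 weeks (old). Whole hearts were frozen and ground to powder, and the RNA of each was hybridized to 1 Agilent array with Cy3 label only. A level is a background-subtracted spot signal in units of the 75th percentile on that array, so it has no absolute unit, and levels of different genes are not compared. Differences are female minus male on the log2 scale. In whole-heart RNA, fewer cells of a type and less RNA per cell cannot be told apart. No record of flushing blood from the hearts is given in the sources used here.

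Between 17182 and 24290 spots of an array were well above background, with male replicate 2 at 21 weeks the lowest. Females lay at other positions of the slides than males at every age, so position and sex cannot be told apart. At 78 weeks 1 array labeled female (replicate 2) and 1 labeled male (replicate 3) had Ddx3y and Eif2s3y, which lie on the Y chromosome, at the level of the other sex. Labels were kept, and results at that age are also given without both arrays. Cardiomyocyte markers were present as the label says, with all 10 found. Their summed level was 2110 to 2640 in females and 1930 to 2830 in males at 8 weeks. It was 2520 to 3560 and 2990 to 6330 at 21 weeks, and 2290 to 2800 and 2490 to 3040 at 78 weeks. At 21 weeks this sum too had its higher median in males (2970 in females and 4110 in males). Red cell markers were present in every heart as well, 9 of 13 being in the tables, with a summed level of 126 to 163 in females and 131 to 197 in males at 8 weeks, 152 to 235 and 185 to 448 at 21 weeks, and 129 to 172 and 158 to 191 at 78 weeks. Hbb-b1 alone had a median of 122, 163 and 132 at these ages, so the sum mostly follows that gene. Leukocyte markers summed to 52.5 to 63.0 in females and 53.4 to 62.4 in males at 8 weeks, 67.7 to 86.6 and 77.8 to 137 at 21 weeks, and 45.7 to 55.7 and 53.1 to 78.9 at 78 weeks. Cd74 alone had a median of 43.2, 59.5 and 37.6 at these ages, so it makes up most of that sum. Of the T cell markers, Cd3d was well above background on 10 arrays at each age. Cd3e was so on 0 arrays at 8 and 21 weeks and on 1 at 78 weeks. The part of any cell type in the differences below was not tested.

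For 4 of the 12 rows the strand of the probe matters. The array's design places the row of Hba-a2 and the first rows of Cpox, Urod and Slc4a1 on the plus strand, and the other probes described here for these genes on the minus strand. In the scanner files the 4 plus-strand probes are named by expressed sequence tags, and the gene symbol of their rows comes from the authors' tables, while the minus-strand probes are named by RefSeq mRNA records. The sequences below show this for 3 genes. Positions are those of the rat build rn3 given in the scanner files, and letters run 5′ to 3′. For Cpox, 59 of the 59 bases shared by both probes were complementary, and 30 of them are printed from the probe of each row, in capitals. For Hba-a2, the capitals mark a run of 45 bases that is the reverse complement of the other probe. The second probe of that pair is an alpha globin probe that belongs to none of the 12 rows. For Urod the probes share no run of more than 6 bases on either strand, and their design positions lie side by side. The Alas2 probe is shown because its sex difference led to the choice of these genes.
Cpox first row, chr11:42806382-42806441, plus strand: ACATCTAACATATTCCAGGATAATATTTAA
Cpox second row, chr11:42806381-42806440, minus strand: TTAAATATTATCCTGGAATATGTTAGATGT
Hba-a2 row, chr10:15585629-15585873, plus strand: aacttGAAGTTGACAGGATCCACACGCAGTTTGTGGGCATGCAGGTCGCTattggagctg
alpha globin probe, chr10:15560180-15560237, minus strand: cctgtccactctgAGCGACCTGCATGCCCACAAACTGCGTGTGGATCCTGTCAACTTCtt
Urod first row, chr5:137302649-137302805, plus strand: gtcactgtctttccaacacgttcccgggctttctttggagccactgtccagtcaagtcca
Urod second row, chr5:137301825-137302617, minus strand: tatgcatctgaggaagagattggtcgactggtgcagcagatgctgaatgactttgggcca
Alas2, chrX:39863822-39863881, plus strand: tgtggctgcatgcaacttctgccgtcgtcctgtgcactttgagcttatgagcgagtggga

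The first rows of Cpox and Slc4a1 were at background and the other plus-strand rows were not. The first Cpox row passed the background call on 0 of 30 arrays (level 0.0138 to 0.0569, scaled to all probes), and the probe of its second row on all 30 (0.412 to 0.965). The first Slc4a1 row did so on 0 of 30 arrays (0.0161 to 0.0547), and the brighter probe of its second row on all 30 (1.03 to 3.24). Both Urod rows were well above background on all 30 arrays, the first at 0.381 to 0.916 and the minus-strand probe printed above at 28.9 to 77.3. The Hba-a2 row was well above background on all 30 arrays at 0.690 to 4.90. The alpha globin probe that mirrors it was saturated on all 30, so it gives no comparison of groups. Hba-a2 values below are those of the plus-strand probe, and which transcript it reads was not tested. The sex differences of the other 3 plus-strand rows lay between -0.28 and 0.40 at 8 weeks, -0.26 and -0.12 at 21 weeks, and -0.03 and 0.07 at 78 weeks. For Cpox, Urod and Slc4a1 only the second, brighter row is used from here on.

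**Figure D1:**
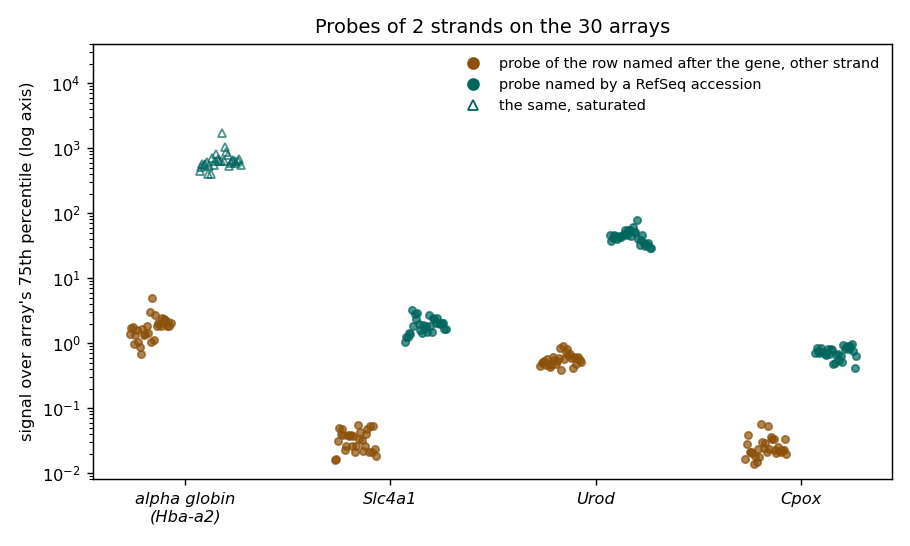
Levels of 4 plus-strand row probes and of the minus-strand probes set beside them in all 30 hearts, with the level (signal over the 75th percentile of all probes of the array) on a log axis and 1 point per heart. Triangles are saturated spots, which are all 30 of the alpha globin probe. The first rows of Cpox and Slc4a1 reach at most 0.0569 and 0.0547.

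Alas2, the erythroid synthase, had a higher mean in males at all 3 ages, except that the difference at 21 weeks turned to 0.16 with normexp, another background correction. At 8 weeks its level was 8.69, 7.12, 6.99, 13.3 and 9.78 in the females and 16.0, 11.2, 19.8, 20.1 and 15.5 in the males. The groups overlapped by 1 rat each, and 4 of 5 males lay above every female. The mean was 1.81-fold higher in males (difference -0.86 on the log2 scale). This is the difference for which the gene was picked, so it carries no test. At 21 weeks females had 10.7, 16.7, 15.02, 16.4 and 16.9 and males, in no stated order, 15.7, 19.0, 20.4, 16.6 and 20.7. All 5 males were above the female mean and the groups overlapped. The difference of -0.30 (95% confidence interval -0.66 to 0.06, 1.23-fold) did not pass the test (p = 0.0714 by two-sided exact permutation, 0.355 after limma's adjustment over all rows). At 78 weeks females had 8.75, 13.6, 11.9, 2.65 and 11.2 and males 11.3, 15.3, 14.8, 15.2 and 10.8. Female replicate 4, at 2.65, stood below all other hearts. The difference was -0.66 (interval -1.56 to 0.23), exact p = 0.0873 by permutation and limma adjusted p = 0.856, and it was -0.25 without female replicate 4 and -0.80 without both arrays at odds with their label. Within the 3 slides of each tested age, of 1 or 2 rats per sex, the difference lay between -0.35 and -0.21 at 21 weeks and between -1.22 and -0.23 at 78 weeks.

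Slc4a1, the anion exchanger that anchors the red cell skeleton, had its higher mean in males at 8 and 21 weeks and in females at 78 weeks. Its second row is the mean on the log scale of 2 probes, one of which passed the background call on 0 of 30 arrays. The other is described here on the scale of all probes. At 8 weeks females had 1.03, 1.23, 1.24, 1.45 and 1.40 and males 3.24, 1.83, 2.78, 2.31 and 2.86, so that the groups did not overlap. The level of this probe was 2.03-fold higher in males, without a test. The row itself was 1.97-fold higher in males, with overlapping groups (0.0742 to 0.113 in females and 0.0909 to 0.269 in males). At 21 weeks the means of the probe were 1.69 in females and 1.82 in males (exact permutation p = 0.635). The row differed by -0.35 at that age (exact permutation p = 0.0873, limma adjusted p = 0.378). At 78 weeks females had 2.43, 2.32, 2.01, 2.41 and 2.03 and males 1.95, 2.02, 2.07, 1.64 and 1.63. Here females were 1.21-fold higher, with overlapping groups (exact permutation p = 0.0397, not adjusted). The row itself differed by 0.35 at 78 weeks (exact permutation p = 0.0556, limma adjusted p = 0.856). It was higher in the female of 5 of the 5 pairs of equal replicate number, and with the pair as a block limma gave an adjusted p of 0.727. Without both arrays at odds with their label the row differed by 0.52, and 4 females lay above 4 males (exact permutation p = 0.0286, the smallest that 4 against 4 allows, limma adjusted p = 0.393). Between 21 and 78 weeks the sex difference of the bright probe moved by 0.38 (limma adjusted p = 0.406).

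Hbb-b1, a beta globin, shares long stretches with its gene copies, so its probe may read several of them. Its level at 8 weeks was 101 to 133 in females (median 123) and 99.98 to 158 in males (median 120). Neither sex stood apart (difference -0.065). At 21 weeks females had 123, 144, 200, 140 and 171 and males, in no stated order, 146, 385, 154, 230 and 259, a difference of -0.52 (interval -1.11 to 0.07, exact permutation p = 0.0952, limma adjusted p = 0.342). The highest male value belonged to the array with the fewest spots above background, and without it the difference was -0.32. At 78 weeks the levels were 115 to 137 in females and 119 to 142 in males, and the difference of -0.054 had an interval of -0.26 to 0.15 (exact permutation p = 0.429, limma adjusted p = 0.939). The Hba-a2 row differed by 0.33 at 8 weeks, by -0.19 at 21 weeks (exact permutation p = 0.730) and by 0.051 at 78 weeks (exact permutation p = 0.627).

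Fech, which closes the pathway in every cell, had a higher mean in males at all 3 ages. At 21 weeks females had 2.62, 3.18, 2.40, 2.90 and 2.49 and males, in no stated order, 3.86, 4.19, 3.78, 3.17 and 4.71. Males were above all females in 4 of 5 hearts, and the remaining male lay just below the highest female. The mean was 1.45-fold higher in males (difference -0.53, interval -0.85 to -0.21). The exact permutation test of this row gave p = 0.0159, and limma adjusted over all rows gave p = 0.265, so it did not pass. It lay between -0.94 and -0.37 within the 3 slides. At 8 weeks the levels were 2.04 to 2.34 in females and 2.21 to 2.85 in males, a difference of -0.14. At 78 weeks they were 2.09 to 2.33 and 2.10 to 3.15, a difference of -0.15 (interval -0.41 to 0.11, exact permutation p = 0.159, limma adjusted p = 0.863). Without male replicate 4 of the same age, the difference was -0.084 at 8 weeks and -0.05 at 78 weeks. The change of the difference from 21 to 78 weeks was 0.39 (limma adjusted p = 0.334).

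Urod, which removes carboxyl groups from uroporphyrinogen in the cytosol, was close between the sexes at 8 weeks (36.1 and 36.0) and at 21 weeks (42.4 in females and 46.0 in males, difference -0.12, exact permutation p = 0.437). At 78 weeks females had 29.7, 25.8, 30.6, 34.5 and 28.2 and males 24.9, 26.7, 28.1, 24.4 and 24.1. The groups overlapped through the female of 25.8, which is one of both arrays at odds with their label. The difference was 0.21 (interval -0.01 to 0.44, exact permutation p = 0.0317, limma adjusted p = 0.856), and it turned to -0.0555 with normexp. Without both arrays it was 0.29 and the groups did not overlap (exact permutation p = 0.0286, limma adjusted p = 0.537). Its 2 minus-strand probes differed by 0.17 and 0.28 at that age (exact permutation p = 0.0794 and 0.0159). The row was higher in the array labeled female in 4 of the 5 pairs of equal replicate number. By the Y-linked genes, the pairs with an array at odds with its label do not compare a female with a male. With the pair as a block limma gave an adjusted p of 0.727.

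Alas1, the synthase of non-erythroid tissue, had overlapping groups of females and males at every age. Its level was 134 to 163 in females and 126 to 165 in males at 8 weeks, with means of 146 and 141. At 21 weeks the means were 163 and 177 (difference -0.12, interval -0.42 to 0.17, exact permutation p = 0.286) and at 78 weeks 128 and 126 (difference 0.028, interval -0.25 to 0.31, exact permutation p = 0.833). Male replicate 4 at 78 weeks, at 166, was above all other old males, which lay between 114 and 123. Cpox, the oxidase of coproporphyrinogen, had means of 0.443 and 0.422 at 8 weeks, 0.359 and 0.344 at 21 weeks (exact permutation p = 0.683) and 0.467 and 0.384 at 78 weeks (p = 0.270). Its lowest old heart, at 0.220, was the same male replicate 4. Ppox, which forms protoporphyrin, was well above background on 28 of 30 arrays, with differences of -0.012 at 8 weeks, -0.44 at 21 weeks (interval -0.96 to 0.079, exact permutation p = 0.119) and 0.0085 at 78 weeks (exact permutation p = 0.976).

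**Figure D2:**
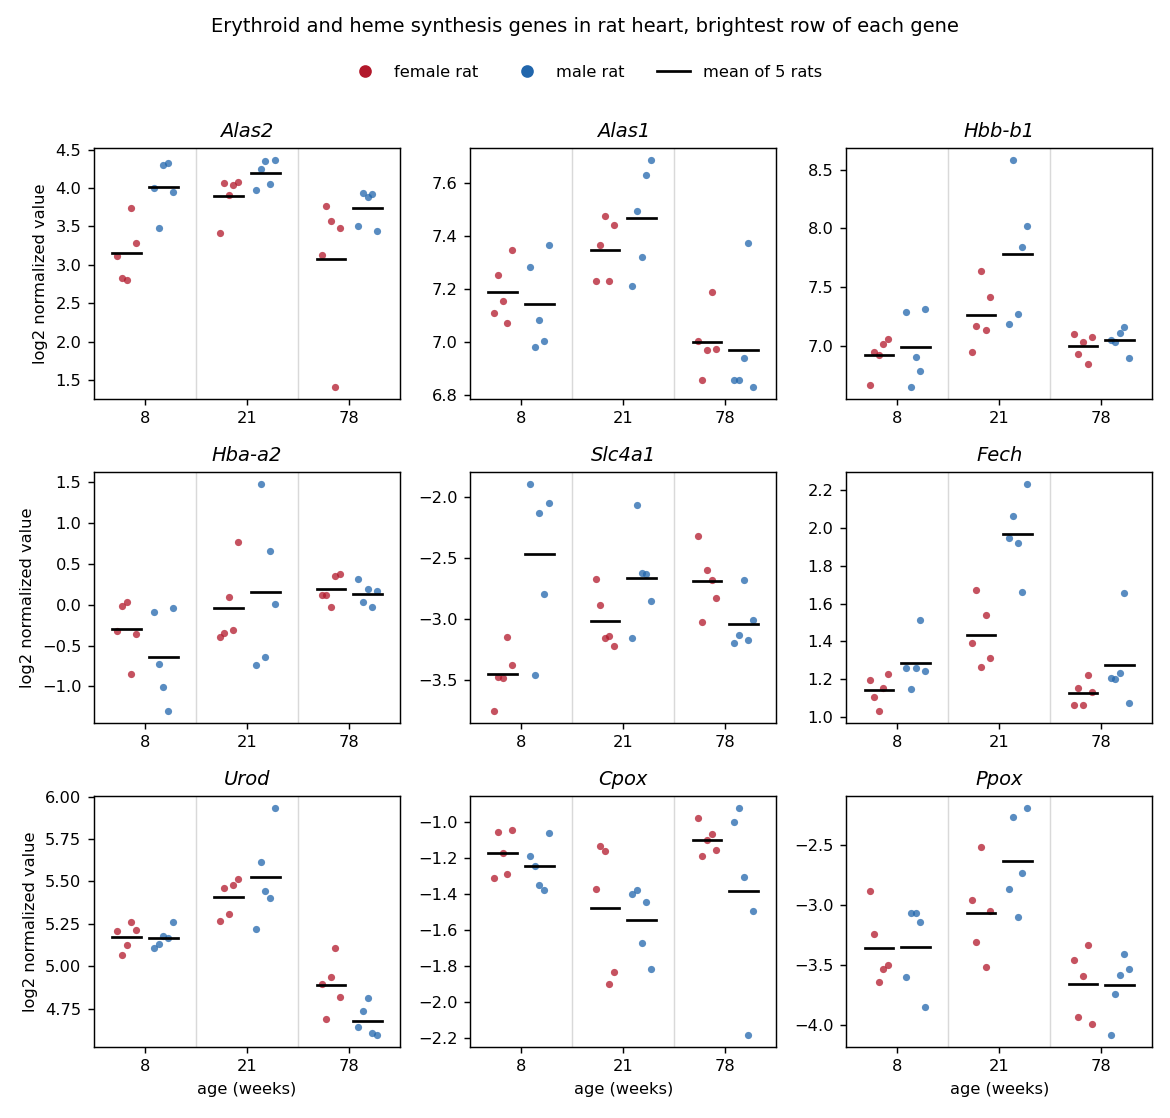
Level of each of the 9 genes in the authors' tables (log2 of signal over the 75th percentile) in every heart by age and sex, with 1 point per rat and a black bar at the mean of 5. Alas2 has its male mean above its female mean at all 3 ages in these values (at 21 weeks not with normexp), and a single female of 78 weeks lies far below the others.

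Over all 12 rows, limma at a Benjamini-Hochberg adjusted p under 0.05 called 0 rows at 21 or 78 weeks. At 8 weeks it called 0.102% of all rows of the table, at 21 weeks 0.0511%, at 78 weeks 0%, and 0.0339% at 78 weeks without both arrays. At an unadjusted p under 0.05 the 8-week table had 5.74% of its rows called. No count of the 12 is given at that age, since Alas2 was picked on that comparison. At 21 weeks 15.9% of all rows and 1 of the 12, Fech, were called at that unadjusted threshold. At 78 weeks 5.65% of all rows and 1 of the 12, Slc4a1, were called, and 8.4% and 2 of 12, Slc4a1 and Urod, without both arrays. The 18 exact tests of the brighter rows, 9 genes at 2 ages, had a smallest p of 0.0159 (Fech, 21 weeks), where 5 against 5 can reach 0.00794. The median difference of all rows was -0.0043 at 8 weeks, -0.135 at 21 weeks and -0.0038 at 78 weeks. Adult differences below 0 are to be read against that shift of all genes. For 0 of the 9 genes did the sex difference change from 21 to 78 weeks at an adjusted p under 0.05, by limma on all probes (0.00244% called), and for 1, Fech, at an unadjusted p (13.5% called).

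**Figure D3:**
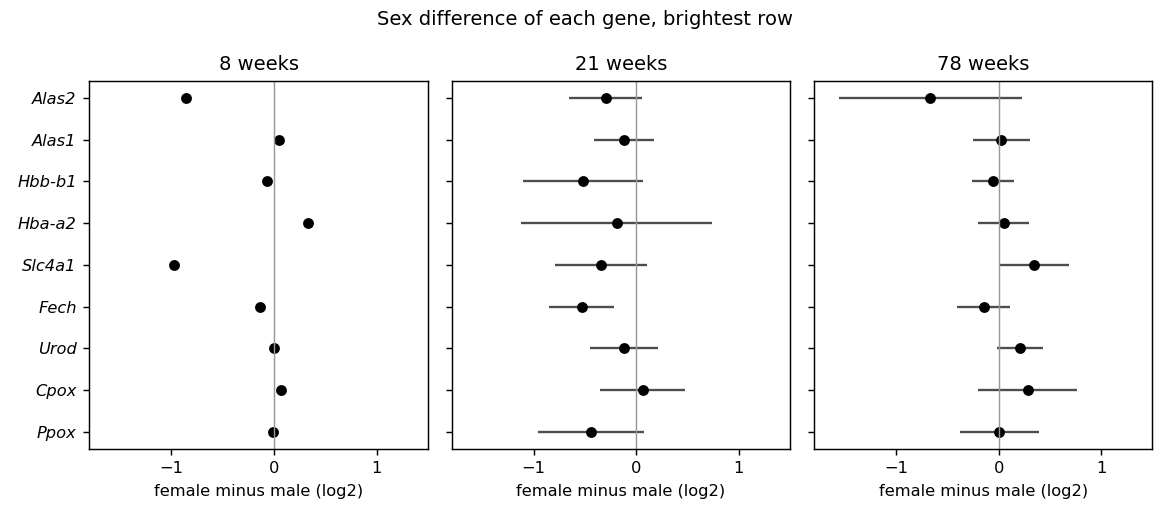
Female minus male difference (log2) of the 9 genes at 8, 21 and 78 weeks, with bars for the 95% confidence interval at 21 and 78 weeks and points without bars at 8 weeks, which are not tested. Points left of 0 are higher in males. The Fech interval at 21 weeks and the Slc4a1 interval at 78 weeks do not reach 0 before adjustment.

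Beside the members, 43 further names of red cell genes (globins, membrane skeleton, erythroid transcription factors) were looked up, of which 25 to 27 had a row. At 8 weeks the median difference of their 36 rows was -0.40, against -0.0043 for all rows. It is given as a description only, since Alas2 was picked on that comparison. Ahsp, the chaperone of free alpha globin, had a mean level of 1.26 in females and 3.21 in males (2.55-fold), and Rhd, the Rh antigen, had 0.221 and 0.538 (2.44-fold). At 21 weeks 12 of 33 rows were higher in males and 2 in females at an unadjusted limma p under 0.05, where 15.9% of all rows were called. The median was -0.40 against -0.135 for all rows, and 0 passed the adjusted limma p. Without female replicate 1 the 12 became 6. Rhd had 0.310 and 0.510 (limma adjusted p = 0.230), the embryonic globin Hbe2 0.127 and 0.210 (adjusted p = 0.280), and Ahsp 0.993 and 1.56 (adjusted p = 0.268). At 78 weeks 4 of 35 rows were higher in males and 0 in females, where 5.65% of all rows were called, with a median of -0.26 against -0.0038 and 0 past the adjusted limma p. With the replicate pair as a block 7 were higher in males and 1 in females. The count in males was 1, with 1 in females, without female replicate 4, 2 in males without female replicate 1 or male replicate 2, 10 without female replicate 2, and 9 without both arrays at odds with their label. Add2, a red cell adducin, had 0.394 and 0.819 (difference -1.06, limma adjusted p = 0.856) and Hbb 12.4 and 18.2 (difference -0.55, adjusted p = 0.856). Without female replicate 4 these differences were -0.58 and -0.20. Both genes have a second, dimmer row. It differed by -0.54 for Add2 and by 0.044 for Hbb at this age, where Hbb had 0.256 in females and 0.249 in males. Without female replicate 4 the dimmer rows differed by -0.27 and 0.11. Normexp gave a median of -0.051 at 8 weeks, -0.465 at 21 weeks and 0.145 at 78 weeks, against 0.0225, -0.38 and 0.154 for all rows, so the direction of the list at 78 weeks turned with the background method. At an unadjusted p, limma on normexp values called 3 and 0 rows of the list higher in males at 21 and 78 weeks.

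Of the remaining lists, 0 rows passed the adjusted limma p at 21 or 78 weeks. Uros, which closes the ring of uroporphyrinogen, had 0.193 in females and 0.309 in males at 21 weeks (limma adjusted p = 0.284). Among genes of heme transport and iron, 6 of 28 rows were higher in males and 1 in females at 21 weeks at an unadjusted limma p under 0.05. At 78 weeks 2 and 0 of 27 were. Over all rows the shares called were 15.9% and 5.65%, and they apply to the lists that follow too. Heme breakdown had 2 of 6 (higher in males) and 0 of 6 rows at 21 and 78 weeks. Hmox1, the inducible heme oxygenase, had 0.897 in females and 1.19 in males at 21 weeks (limma adjusted p = 0.280). Heme proteins of the heart, such as myoglobin and cytochrome c1, had 1 (higher in males) and 0 of 12 rows at these 2 ages.

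To see which genes moved with Alas2 from rat to rat, the mean of each of the 6 groups was subtracted and the Alas2 probe was set against 20819 probes over 30 arrays. The 10 most similar names were Add2 (Pearson r = 0.876), Akr1c12_predicted (0.865), Hbb (0.855), AI233983 (0.846), Rsad2 (0.841), Mkrn1 (0.840), Pdia5 (0.837), Qprt (0.836), CB544265 (0.834) and TC541702 (0.831). These values are a description, and arrays of a slide were hybridized together. Without female replicate 4 of 78 weeks, Add2 kept 0.690 and Hbb 0.686, and the other 8 fell to between 0.408 and 0.622. That rat deviated from its group mean by -1.64 for Alas2, -1.37 for Hbb and -1.88 for Add2, and by -0.13 for Hbb-b1. Among the members, Hbb-b1 had r = 0.216, Fech 0.160, Slc4a1 0.0332, Urod -0.0214, Alas1 -0.128, Hba-a2 -0.177, Ppox -0.197 and Cpox -0.228. The 10 names above were picked as the highest of all probes searched, so lower values of preset genes outside them follow from that choice. The values of the members include female replicate 4 of 78 weeks, and some change by age and with rats left out, as given below.

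**Figure D4:**
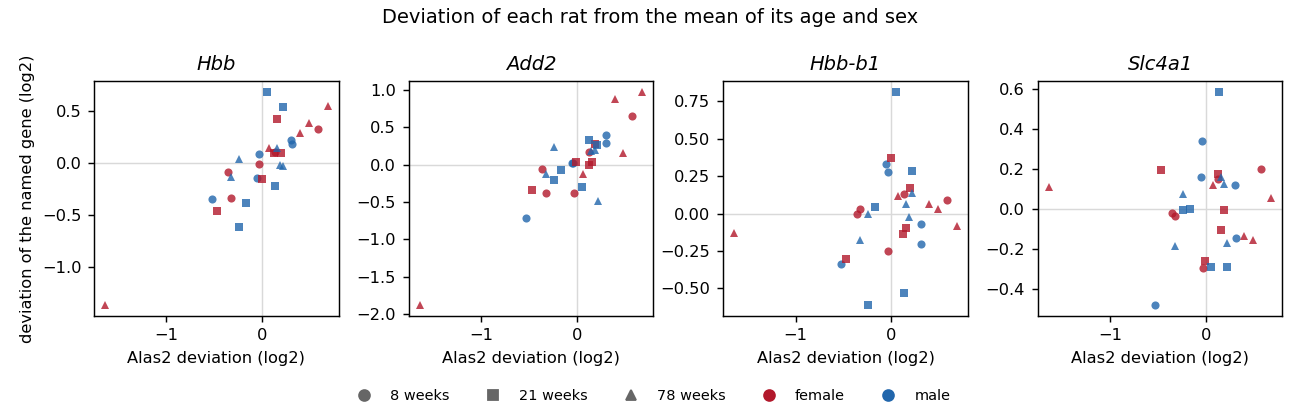
Deviation of each of 30 hearts from the mean of its age and sex (log2) for Hbb, Add2, Hbb-b1 and Slc4a1, against the same deviation of Alas2. The female of 78 weeks at -1.64 for Alas2 lies low for Hbb and Add2 too, and near 0 for Hbb-b1 and Slc4a1.

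Within single ages, the 8 other members were correlated with Alas2 over 10 rats after the mean of each sex was subtracted, which gave 24 relations. None of the 24 passed after adjustment by permutation within sex. The smallest adjusted p of Pearson's r was for Urod at 21 weeks (r = 0.706, rho = 0.842, permutation p = 0.00458 and 0.00618, adjusted 0.110 and 0.0742). Without the 2 rats farthest from the median of Alas2 its r was 0.687 (adjusted permutation p = 0.536). Fech at 8 weeks had r = 0.658 and rho = 0.818 (permutation p = 0.0514 and 0.00553, adjusted 0.453 and 0.0742). Without the 2 farthest rats its r was 0.723 (adjusted permutation p = 0.0444). In the same leave-out the Hba-a2 row had r = -0.75 at 8 weeks (adjusted permutation p = 0.0442), against -0.635 in all 10 rats. At 78 weeks Urod went from -0.581 to 0.611 when female replicates 2 and 4 were left out.

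Ages were compared on the scanner values of the brightest probe of each gene in 1 fit over all 30 hearts. Animals of different ages were run in different batches, so age and batch cannot be told apart. Hearts of 8 and 78 weeks shared 1 slide, with 2 of each age. Levels in this paragraph are scaled to all probes. Urod had group means of 91.6 (females) and 87.9 (males) at 8 weeks, 108 and 116 at 21 weeks, and 79.5 and 70.7 at 78 weeks. It was lower at 78 than at 8 weeks by a difference of -0.26 (limma adjusted p = 0.0221), -0.38 within the shared slide, -0.27 with quantile normalization and -0.25 without both arrays at odds with their label (adjusted p = 0.0505). Without female replicate 2 of 78 weeks alone it was -0.23 (adjusted p = 0.0530). The Hba-a2 row was 1.67-fold higher at 78 than at 8 weeks, 0.74 on the log2 scale (limma adjusted p = 0.0214), with 0.52 within the shared slide. That call was lost without female or male replicate 4 of 8 weeks (0.66 and 0.64, adjusted p = 0.0514 and 0.0560). Alas2 had 15.4 and 27.7 at 8 weeks, 26.3 and 32.1 at 21 weeks and 15.6 and 24.4 at 78 weeks, and differed from 8 to 78 weeks by -0.08 (adjusted p = 0.809), which became 0.13 without female replicate 4. Alas1 had -0.07, Hbb-b1 0.17, Slc4a1 0.18, Fech 0.09, Cpox 0.06 and Ppox -0.22, and none of these passed. Of the 9 genes, 1 was called higher, where 5.76% of all probes were, and 1 lower, where 5.16% were.

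The 21-week hearts stood apart from both other ages for most of these genes under 75th percentile scaling. From 8 to 21 weeks 7 of the 9 genes were called higher (Alas2, Alas1, Hbb-b1, Hba-a2, Fech, Urod and Ppox), where 42.4% of all probes were, and Cpox lower, where 15.1% were. From 21 to 78 weeks 6 were called lower (Alas2, Alas1, Hbb-b1, Fech, Urod and Ppox), where 19.5% of all probes were, and Cpox higher, where 13.6% were. The median of all probes moved by 0.29 and -0.19 in these 2 comparisons. Relative to it, the genes lay between -0.56 (Cpox) and 0.30 (Hbb-b1) from 8 to 21 weeks, with Fech at 0.22 and Ppox at 0.23, and between -0.56 (Ppox) and 0.52 (Cpox) from 21 to 78 weeks, with Alas2 and Urod at -0.38. With quantile normalization the median shift was 0.049 and -0.049, and only Fech (0.42) and Ppox (0.63) remained called higher at 21 than at 8 weeks, while Alas1 turned to -0.19 and was called lower. In the later comparison Fech, Urod and Ppox remained called lower, at -0.33, -0.24 and -0.91. The calls for Cpox were lost with quantile normalization and without both arrays at odds with their label, and normexp background correction called 0 of 9 in each of the 3 comparisons. From 8 to 21 weeks the Cpox call was also lost without the slide as a block (limma adjusted p = 0.0596). It was lost too among probes well above background on at least 15 arrays (limma adjusted p = 0.0556). Single hearts also decided some calls from 8 to 21 weeks. Alas2 was no longer called without any 1 of 7 hearts (females 2 and 3 and male 2 of 8 weeks, females 2, 4 and 5 and male 5 of 21 weeks), with values of 0.42 to 0.47. The Hba-a2 row was not without any 1 of 6 (female 4 and males 3 and 4 of 8 weeks, female 5 and males 2 and 4 of 21 weeks), with 0.38 to 0.50, and Cpox was not without any 1 of 20. From 21 to 78 weeks Alas2 was lost without male 5 of 78 weeks (-0.52) and Cpox without any 1 of 5 (females 4 and 5 and male 5 of 21 weeks, males 1 and 2 of 78 weeks), while Slc4a1 was called higher without male 3 of 21 weeks (0.28).

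**Figure D5:**
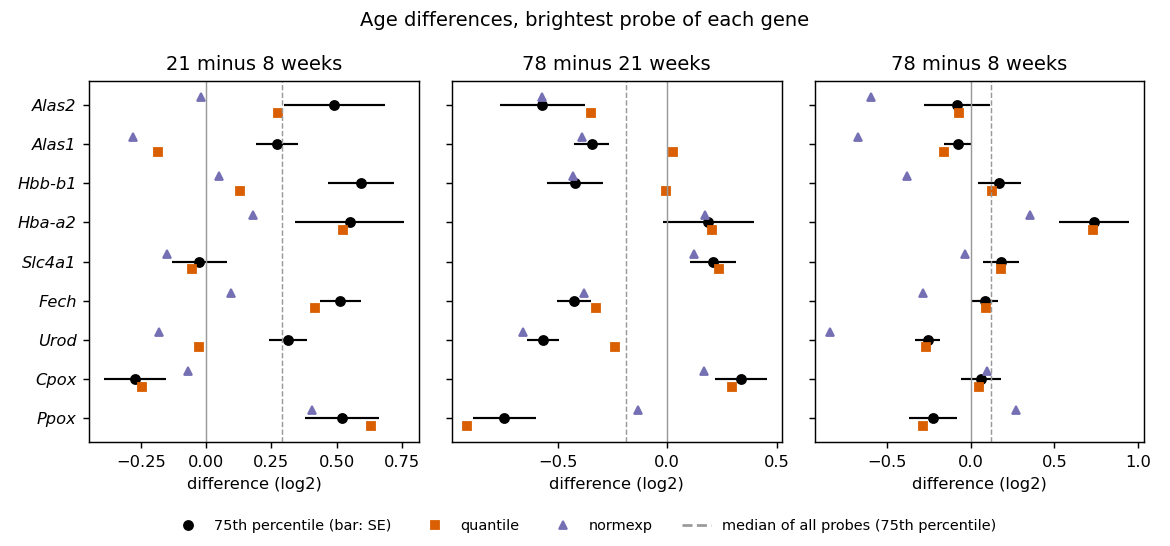
Age differences (log2) of the brightest probe of each of the 9 genes under 75th percentile scaling with its standard error, quantile normalization (squares) and normexp background correction (triangles), for 21 minus 8, 78 minus 21 and 78 minus 8 weeks. The dashed line is the median of all probes under 75th percentile scaling, 0.29, -0.19 and 0.12, and Alas1, Urod and Alas2 change sides of 0 between settings from 8 to 21 weeks.

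The largest age difference of the lists around the pathway was in iron uptake. Tfrc, the transferrin receptor that brings iron into cells, had 3 probes. The brightest had 18.7 at 8 weeks, 8.53 at 21 weeks and 5.17 at 78 weeks over both sexes. It was 3.59-fold lower at 78 than at 8 weeks (difference -1.84, limma adjusted p = 8.0e-12), with -1.88 under quantile normalization, -2.29 under normexp and -2.28 within the shared slide. The second probe, with the larger difference, had 1.70, 0.669 and 0.414. It was 4.05-fold lower at 78 than at 8 weeks (difference -2.02, limma adjusted p = 3.2e-12), with -2.10 under quantile normalization, -1.12 under normexp and -2.54 within the shared slide. The dimmest probe, well above background on 6 arrays, was lower too at 75th percentile scaling and turned to 0.19 under normexp. Slc11a2, the iron importer, differed by -0.66 in its brighter probe (adjusted p = 5.0e-06), with -0.81 within the slide, and by -0.12 in the other (adjusted p = 0.301). Hmox1 was higher by 0.49 (adjusted p = 0.000622) and 0.41 within the slide, and under normexp it did not pass (0.26, limma adjusted p = 0.0766). In all, from 8 to 78 weeks, 6 of 23 probes of heme transport and iron were higher and 6 lower, 1 of 4 of heme breakdown higher, 1 of 9 of heme proteins of the heart higher and 2 of 23 of the other red cell genes higher, where 5.76% of all probes were higher and 5.16% lower. Uros was higher by 0.85 from 8 to 21 weeks (adjusted p = 3.0e-05; 0.91 with quantile normalization) and differed by -0.81 from 21 to 78 weeks (adjusted p = 4.7e-05; -0.94), and under normexp neither passed (0.45 and -0.15). In these 2 comparisons 42.4% of all probes were higher and 15.1% lower, and then 13.6% and 19.5%. Heme transport and iron had 10 higher and 7 lower and then 0 and 11 of 23 (with quantile normalization 7 and 7 and then 2 and 8). Heme breakdown had 4 and 0 and then 0 and 3 of 4 (3 and 0, then 0 and 3). Heme proteins of the heart had 6 and 0 and then 0 and 3 of 9 (1 and 1, then 2 and 1). The other red cell genes had 9 and 1 and then 2 and 2 of 23 (4 and 1, then 4 and 4). Under normexp 2 probes of these lists, of heme transport and iron, were called in the earlier comparison, both lower, and 0 in the later.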

How the data were processed

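Labeled cRNA of 30 hearts was hybridized to Agilent rat arrays. Spot intensities and flags were deposited as written by Agilent Feature Extraction (named in the submitters' processing notes, with no version). Per the methods, the authors averaged probes of a gene, removed genes not expressed and scaled each array to its 75th percentile. The deposited tables hold these linear signal values per age. Of their rows, 98.7 to 98.8% matched 1 probe, or a log2 mean of probes, of the processed intensities within 0.002 log2. The 5 male columns at 21 weeks name only the group, so settings that need a numbered male of that age used scanner values.

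Log2 values were compared with limma 3.58.1 in R 4.3.3 (two-sided, Benjamini-Hochberg adjustment over all rows of an age or all 41012 probes, threshold 0.05). Member rows at 21 and 78 weeks were also compared by exact permutation tests over all splits of the sex labels, in Python 3.11.15. The t quantiles of the confidence intervals came from scipy 1.17.1. Ages used 6 groups with the slide as a random block (correlation -0.0425). Relations with Alas2 used 100000 permutations within sex. The fits were tested on simulated data. A member is described by its brightest row. Of each list, the 2 genes with the largest difference among those well above background on every array of a comparison were to be named, and up to 8 that passed, of which the text gives those that say most about heme and iron. Some genes of the lists, and the counts of 1 list, are not reported here. Values of Ahsp beyond 8 weeks were chosen after they were seen. The members and lists were chosen with earlier results of these data known. Each sample was 1 rat, so p-values measure the spread between rats. At 78 weeks all 5 same-numbered pairs deviated together (r = 0.199 to 0.338), which pairs them, and at 8 and 21 weeks not all did. The exact permutation tests did not use this pairing. Pairs and blocks follow the labels, also where a pair holds an array at odds with its label. Alternatives were each array left out, the first or mean row of a name, another signal, background, normalization or filter, slide and replicate blocks, the methods' t-test and scanner values for all probes.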

Additional observations from a re-analysis of the deposited data

Results flagged for a closer look

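In 54 groups of 5 hearts (9 genes, 6 groups), 4 had 1 heart far from the other 4 by Dixon's ratio of the gap to the range. Chance alone gives about 1 in 20 such groups. Alas2 in females at 21 weeks had a ratio of 0.737, through female replicate 1 at 10.7 against 15.02 to 16.9. Alas2 in females at 78 weeks had 0.729, through female replicate 4 at 2.65, the heart that also lay low for Hbb and Add2. In males at 78 weeks replicate 4 was highest for Alas1 (ratio 0.798, level 166) and for Fech (0.731, level 3.15 against 2.10 to 2.35). The same heart had the lowest Cpox of the old hearts (0.220). What sets these hearts apart was not tested.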

How the results depend on the processing

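The number of all rows called between the sexes at 8 weeks, 28, was 16 with normexp background correction, 15 with the slide as a block, 5 with a replicate block and 13 (female replicate 3) to 32 (female replicate 4) with 1 rat left out. At 21 weeks, against 14, it was 1 with normexp, 22 with the raw median signal, 30 among rows well above background on at least 5 arrays, 5 with a replicate block and 8 (female replicate 4) to 18 (male replicate 1) with 1 rat left out. At 78 weeks, against 0, it was 1 with quantile normalization, 9 without both arrays at odds with their label, 0 with the replicate block that the pairing calls for, and 0 to 1 with 1 rat left out. The 0 of 12 rows did not change with the block. Probes called from 8 to 78 weeks fell to 363 with normexp. From 8 to 21 weeks they were 12647 with quantile normalization (6698 higher, 5949 lower, against 17400 and 6183), 908 with normexp and 12252 after the filter on dim probes, which left 20819 to test, against 23583 of 41012 without it. From 21 to 78 weeks they were 312 with normexp. Relations with Alas2 went from 0 to 2 without the 2 farthest rats. Sex differences at 21 weeks changed sign with normexp for Alas2 (0.16), Alas1 (0.53), Hbb-b1 (0.090), Hba-a2 (0.15), Urod (0.46) and Cpox (-0.20), with the median signal for Alas1 (0.11), Urod (0.027) and Cpox (-0.10), with quantile normalization for Alas1 (0.13) and Urod (0.077), and for Cpox with its first row (-0.12) or the mean of rows (-0.026). At 78 weeks they did for Alas1 with normexp (-0.21) and quantile normalization (-0.029), Urod with normexp (-0.0555), Ppox with the median signal (-0.015) and Slc4a1 with its first row (-0.032). Age differences changed sign with normexp from 8 to 78 weeks for Hbb-b1 (-0.38), Slc4a1 (-0.031), Fech (-0.28) and Ppox (0.27), and from 8 to 21 weeks for Alas2 (-0.021), Alas1 (-0.28) and Urod (-0.18). With quantile normalization they did for Alas1 (-0.19) and Urod (-0.028) from 8 to 21 weeks and Alas1 (0.025) from 21 to 78 weeks. Without the 2 farthest rats r with Alas2 turned for Hbb-b1 (-0.255) and Ppox (0.369) at 8 weeks, Alas1 (-0.112), Hbb-b1 (-0.153), Hba-a2 (-0.286) and Slc4a1 (0.0798) at 21 weeks, and Alas1 (0.333), Fech (0.359), Urod (0.611) and Ppox (0.0917) at 78 weeks. With 1 rat left out the ranges that crossed 0 were -0.15 to 0.016 for Hbb-b1, -0.017 to 0.032 for Urod and -0.14 to 0.059 for Ppox at 8 weeks, -0.41 to 0.14 for Hba-a2 and -0.021 to 0.17 for Cpox at 21 weeks, -0.019 to 0.13 for Alas1 and -0.10 to 0.091 for Ppox at 78 weeks, -0.17 to 0.13 for Alas2 from 8 to 78 weeks and -0.10 to 0.013 for Slc4a1 from 8 to 21 weeks. Apart from leaving out 1 rat, the genes' sex differences at 21 weeks kept direction and side of the threshold under 77 alternatives and changed sign under 13, at 78 weeks 94 and 5. Their age differences kept both under 107, changed sign under 10, lost the call under 26 and moved under 1. Only Alas1 from 8 to 21 weeks was past the threshold on both sides of 0. The cause of these changes was not tested. With 5 rats per group, the spread between rats limits every comparison, and saturation leaves alpha globin without one.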
